A study of Mus musculus with 2 samples.

Results

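The 10 abdominal Hox genes Hoxa9, Hoxa10, Hoxa11, Hoxa13, Hoxc9, Hoxc10, Hoxd9, Hoxd10, Hoxd11 and Hoxd13 were picked by symbol from the 32285 genes counted in cells of the mouse uterus. The rule reads symbols only and uses no measured value, though the members were chosen with earlier results of these data known. The study compared 2 single-cell RNA-seq libraries made from whole uteri of female C57BL/6J mice aged 6 months. Each library pooled the cells of 3 mice, so each group is 1 sample and no test between groups was possible. The library labelled control came from Prickle1 f/f mice, and the library labelled cKO (conditional knockout) came from Prickle1 f/f MiC mice. Both groups thus carry the same floxed Prickle1 allele and differ by MiC, which the labels do not spell out. The series title places the loss of PRICKLE1, a core protein of planar cell polarity, in the myometrium, the muscular wall of the uterus. For both, the labels' genotype entry is wild-type. The cells that delete the gene and the part of it that is deleted are not given in the sources used here.

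Hox genes encode homeodomain transcription factors that lie in 4 chromosomal complexes, HoxA to HoxD, and are numbered by their order in the complex. The order along the chromosome mirrors the order of expression from head to tail, and the high-numbered genes mark the hind end of the trunk, the limbs and the urogenital tract. In the Müllerian duct, Hoxa9 is known for the oviduct, Hoxa10 and Hoxa11 for the uterus and Hoxa13 for the cervix and upper vagina, and mice without Hoxa10 or Hoxa11 have defects of uterine identity and of implantation. Hox proteins bind DNA together with the homeodomain partners Pbx and Meis.

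By the gene annotation of the mouse build mm10, the 4 HoxA members lie on the minus strand of chromosome 6. Hoxa13 is at chr6:52257694-52260880, Hoxa11 at chr6:52242106-52245810, Hoxa10 at chr6:52231197-52240854 and Hoxa9 at chr6:52223100-52231089. The 4 HoxD members lie on the plus strand of chromosome 2, Hoxd13 at chr2:74668310-74671599, Hoxd11 at chr2:74679557-74687016, Hoxd10 at chr2:74691924-74695105 and Hoxd9 at chr2:74697727-74700208. Hoxc10 (chr15:102966796-102971893) and Hoxc9 (chr15:102976439-102985099) lie on the plus strand of chromosome 15, where Hoxc9 lies inside the annotated span of Hoxc5 and Hoxc10 overlaps its start. Hoxa11 overlaps its antisense RNA Hoxa11os, and the strand setting of the counting is not given in the sources used here, so their reads may not be told apart. Hoxd10 and Hoxd11 share a read-through transcript that has no row of its own in the files.

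RefSeq promoter windows of the build GRCm38.p6 (the build called mm10), taken here as the 250 bases before the start, were found for 8 of the 10 members, in 10 windows. Hoxc9 and Hoxc10 had no entry. Windows of 3 members are shown because their genes stand for the patterns described here. Hoxa10 had its highest level of any class in the muscle and differed most between the libraries in 1 stromal cluster. Hoxd11 was found across muscle, stroma and mesothelium, and Hoxd13 was near absent outside the mesothelium. Capitals mark a match to the Hox with Pbx motif TGATTNAT on the reverse strand.
Hoxa10 (chr6:52240855-52241104, minus strand): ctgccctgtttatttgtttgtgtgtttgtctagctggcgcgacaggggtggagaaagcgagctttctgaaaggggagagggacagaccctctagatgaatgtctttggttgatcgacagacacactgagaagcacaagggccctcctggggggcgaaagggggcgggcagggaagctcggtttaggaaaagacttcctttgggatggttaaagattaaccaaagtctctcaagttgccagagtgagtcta
Hoxd11, inner start (chr2:74682073-74682322, plus strand): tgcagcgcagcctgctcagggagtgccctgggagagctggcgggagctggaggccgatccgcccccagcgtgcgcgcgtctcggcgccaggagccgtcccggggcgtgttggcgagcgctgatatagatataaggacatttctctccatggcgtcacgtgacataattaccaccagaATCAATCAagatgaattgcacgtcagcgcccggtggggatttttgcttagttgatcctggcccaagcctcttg
Hoxd13 (chr2:74667975-74668224, plus strand): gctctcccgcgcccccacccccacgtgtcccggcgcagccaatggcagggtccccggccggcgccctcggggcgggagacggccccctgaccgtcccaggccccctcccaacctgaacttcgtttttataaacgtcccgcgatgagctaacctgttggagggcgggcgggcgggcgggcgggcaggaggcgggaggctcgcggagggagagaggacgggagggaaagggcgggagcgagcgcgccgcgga
The Hoxd13 window was 74.4% G or C with 31 CpG pairs, more than 94.8% of 32851 promoters of the same length. It ended at base 74668224, short of the start of Hoxd13 in the gene annotation (74668310), so RefSeq and that annotation place the start differently. The inner Hoxd11 window, which lies within the annotated span of the longer Hoxd11 gene, held 20 CpG pairs. The Hoxa10 window shown held 7, near the median of 6 over all promoters. Both genes have another window, with 20 CpG pairs for Hoxa10 and 2 for Hoxd11. Searched on both strands, TGATTNAT was in 1 of the 10 windows and in 2.83% of all promoters. The Meis motif TGACAG was in 0 of the 10 windows and in 15.9% of all promoters. Such a match is a match of letters and says nothing of binding in these cells.

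The deposited matrices held 45035801 unique molecular identifiers (UMIs, counted molecules) in the control library and 34261441 in the cKO library. Barcodes were kept as cells from 1000 UMIs and 500 genes upward if no more than 20% of their UMIs were mitochondrial, which gave 3490 control and 3586 cKO cells with medians of 4953 and 4903 UMIs. The libraries shared 6 cell barcodes. Their makeup differed: epithelium-like cells numbered 1311 in control and 109 in cKO, fibroblast-like cells 854 and 1342, and smooth muscle-like cells 310 and 681. Prickle1, the targeted gene, had 96 UMIs in control cells and 265 in cKO cells, or 2.56 and 9.03 UMIs in each 1000000 of the class (CPM). In smooth muscle-like cells it had 14 and 51 UMIs, or 14.9 and 24.3 CPM, a ratio of 1.63 (0.889 to 3.19). The targeted gene thus goes against its label, or its 3' tags lie outside the deleted part. A label that does not match, 3' tags outside the deleted part and other causes cannot be told apart by the count. The groups are therefore named here only as the libraries labelled control and cKO.

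The 10 genes together had 3234 UMIs in control cells and 7044 in cKO cells, and most came from fibroblast-like and smooth muscle-like cells. Fibroblast-like cells held 72.4% of them in control and 78.3% in cKO, and smooth muscle-like cells 10.4% and 15.3%. Mesothelium-like cells, the lining of the outer uterine surface, held 10.2% and 2.47%. Lymphatic endothelium-like cells held 1.30% and 0.994%. Epithelium-like cells gave 50.3% of all UMIs of control cells but 0.928% of the members' UMIs. The 24 and 29 B cell-like and the 5 and 30 granulocyte-like cells had no member UMI. Levels below are raw UMIs summed over the cells of a class and library and scaled to CPM, with exact 95% Poisson intervals in parentheses, and exact conditional intervals for ratios. These cover counting error only, and UMIs of the same cell are not independent draws.

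Among the classes, smooth muscle-like cells had the highest summed level in both libraries, 357.1 CPM (319.9 to 397.5) in control and 513.4 CPM (483.2 to 545.0) in cKO. Mesothelium-like cells had 352.3 CPM (315.3 to 392.4) and 310.8 CPM (266.3 to 360.5), and in control their interval overlapped that of the muscle. Fibroblast-like cells had 244.6 CPM (234.8 to 254.8) and 342.1 CPM (333.2 to 351.3). Within that class, cluster 21 had 468.3 and 573.6 CPM and cluster 14 had 359.0 and 794.1 CPM, so single stromal clusters reached or passed the muscle class. Within a library, the muscle level was 1.46 times the fibroblast level in control (1.30 to 1.64) and 1.50 times in cKO (1.40 to 1.60). Lymphatic endothelium-like cells had 91.7 and 50.7 CPM, and macrophage or monocyte-like cells 30.3 and 12.1 CPM. Epithelium-like cells had 1.59 CPM (1.07 to 2.27) and 1.49 CPM (0.180 to 5.36). Free RNA, read from barcodes with at most 100 UMIs, held the members at 63.6 CPM in control and 171.7 CPM in cKO, far above the epithelial level. All 8 smooth muscle markers were detected in the smooth muscle-like class, at 11401 and 7290 CPM summed, beside 1063 and 673.8 CPM of fibroblast markers and 52.2 and 52.0 CPM of pericyte markers, with Higd1b and Ndufa4l2 at 0. The fibroblast-like class held 12802 and 11425 CPM of its own markers and 750.5 and 678.7 CPM of smooth muscle markers.

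**Figure D1:**
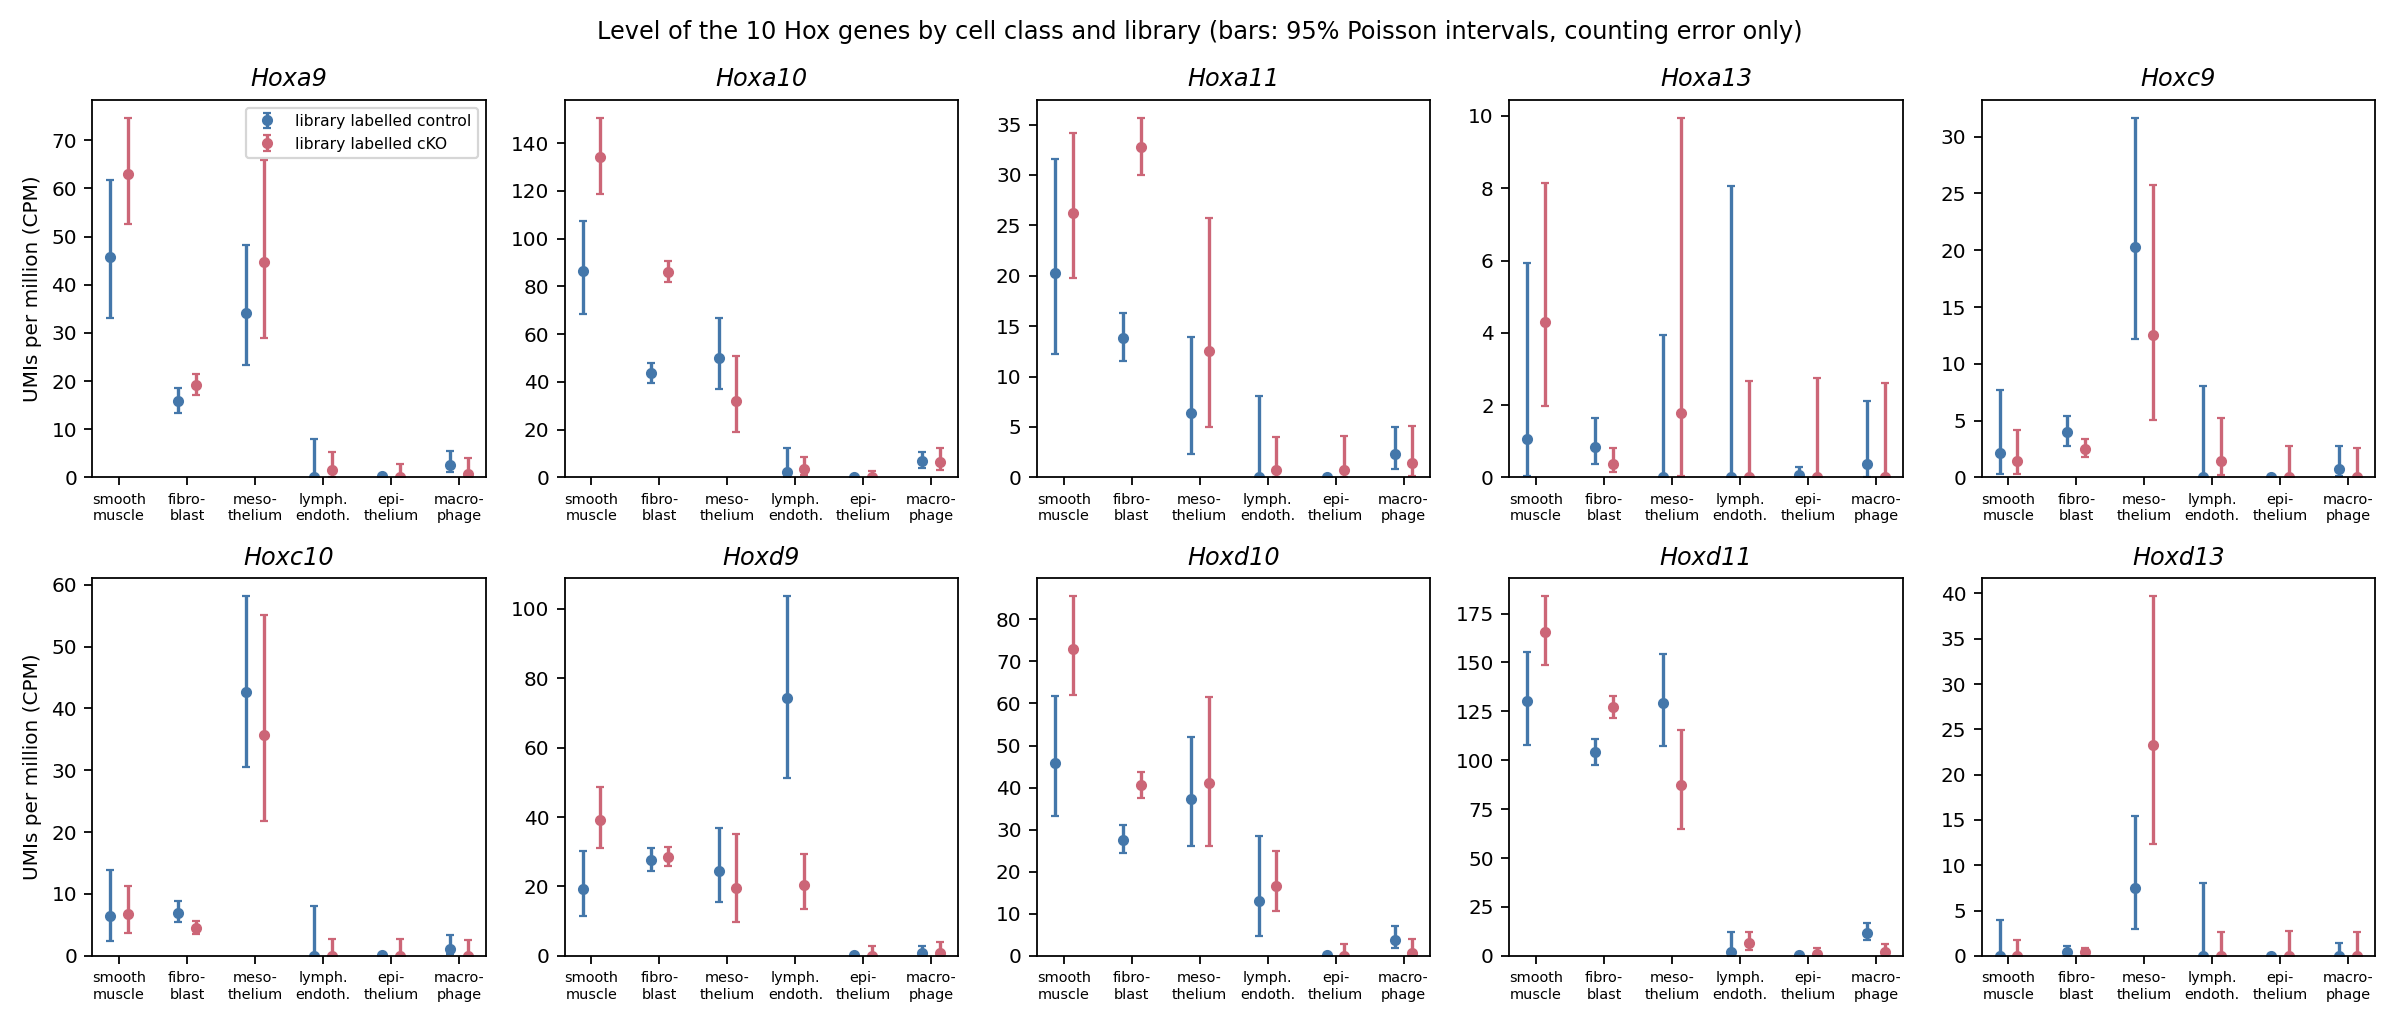
Level of each of the 10 genes (CPM, summed UMIs per class) in the main cell classes, with the library labelled control and the library labelled cKO as separate points and exact 95% Poisson intervals as bars. Hoxd11 reaches 130.1 and 165.6 CPM in smooth muscle-like cells, while Hoxd13 has no UMI there.

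Among the HoxA members, Hoxa10 was highest in the muscle of both libraries. It had 81 UMIs in control smooth muscle-like cells, or 86.4 CPM (68.6 to 107.3), and 281 UMIs in cKO, or 134.1 CPM (118.9 to 150.7). In fibroblast-like cells it had 43.6 and 86.2 CPM, so the muscle level was 1.98 times the fibroblast level in control (1.54 to 2.51) and 1.56 times in cKO (1.36 to 1.77). In control, mesothelium-like cells came second with 50.2 CPM and overlapped fibroblast-like cells. In cKO, fibroblast-like cells came second and no neighbours among the first 3 classes overlapped. Hoxa9 favoured the muscle more: 45.8 CPM in control and 63.0 CPM in cKO, against 15.8 and 19.2 CPM in fibroblast-like cells, ratios of 2.91 (2.02 to 4.10) and 3.28 (2.66 to 4.04). Hoxa11 did not separate these classes, at 20.3 and 26.2 CPM in muscle and 13.8 and 32.8 CPM in fibroblast-like cells, with muscle over fibroblast ratios of 1.47 (0.858 to 2.39) and 0.801 (0.595 to 1.06). Hoxa13, the cervical and vaginal member, was near the limit of counting in muscle and stroma. It had 1 UMI in control muscle and 9 UMIs in 8 cells of cKO muscle, and 8 and 6 UMIs in fibroblast-like cells.

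Among the HoxD members, Hoxd11 gave the most UMIs in muscle, fibroblast-like and mesothelium-like cells, a comparison of counted 3' tags rather than of molecules. Its level was 130.1 CPM in control and 165.6 CPM in cKO muscle, and 104.1 and 127.2 CPM in fibroblast-like cells, ratios of 1.25 (1.03 to 1.51) and 1.30 (1.16 to 1.46). In control, the intervals of muscle, mesothelium (129.2 CPM) and fibroblast-like cells overlapped from each to the next. In cKO they did not, with mesothelium-like cells at 87.5 CPM. Hoxd10 had 45.8 and 73.0 CPM in muscle and 27.6 and 40.6 CPM in fibroblast-like cells, 1.66 and 1.80 times as much in muscle. Hoxd9 had 19.2 and 39.1 CPM in muscle and 27.6 and 28.5 CPM in fibroblast-like cells. Its muscle over fibroblast ratio was 0.696 (0.406 to 1.12) in control and 1.37 (1.07 to 1.74) in cKO, so its order differed between the libraries. Hoxd13 had no UMI in 310 control and 681 cKO smooth muscle-like cells. With a limit of 3 UMIs, that allows a UMI in up to 0.968% and 0.440% of cells, which limits detection at this depth and not the share of cells that express the gene.

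HoxC members and Hoxd13 had their highest levels in mesothelium-like cells. Hoxc10 had 42.7 CPM (40 UMIs) in control and 35.7 CPM (20 UMIs) in cKO, which was 6.104 times (4.02 to 9.16) and 7.995 times (4.61 to 13.3) the fibroblast level. In cKO, 10 of the 20 UMIs lay in 1 of 6 cells, without which the level was 19.7 CPM. Hoxc9 had 20.3 and 12.5 CPM, 5.11 times (2.78 to 9.09) and 5.04 times (1.90 to 11.4) the fibroblast level. In muscle, Hoxc9 had 2 and 3 UMIs and Hoxc10 had 6 and 14. The mesothelium also carried HoxA and HoxD members, Hoxa9 at 34.2 and 44.7 CPM, 2.17 and 2.33 times the fibroblast level. In cKO, 12 of its 25 UMIs lay in 1 cell, without which the level was 25.6 CPM. Hoxd13 had 7 UMIs there in control, 6 of them in 1 cell, and 13 UMIs in cKO, 10 of them in 1 cell. Its ratio to the fibroblast level (17.9 and 62.4) thus rests on 2 and 4 cells. All 6 mesothelium markers were detected in the class, at 1740 and 2054 CPM summed, beside 9863 and 12741 CPM of fibroblast markers and 1804 and 2047 CPM of epithelial markers. The part of these in the result was not tested. The class was small, with 82 control and 31 cKO cells, and 1 cKO cell held 26.4% of its member UMIs in that library. Hoxa10 was 50.2 CPM in control and 32.1 CPM in cKO, where 7 of 18 UMIs came from another cell, without which the level was 19.7 CPM. Hoxd11 had a cKO over control ratio of 0.677 (0.476 to 0.951).

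Lymphatic endothelium-like cells had Hoxd9 as the member with the most UMIs in both libraries, ahead of Hoxd10. In control, 34 Hoxd9 UMIs in 14 of 31 cells gave 74.2 CPM (51.4 to 103.7), the highest Hoxd9 level of any class in that library and 2.69 times (1.83 to 3.86) the fibroblast level. In cKO, 28 Hoxd9 UMIs in 13 of 102 cells gave 20.3 CPM (13.5 to 29.3), 0.710 times (0.467 to 1.04) the fibroblast level. The cKO over control ratio was 0.273 (0.160 to 0.464). Hoxd9 was 81.0% of the members' UMIs of these cells in control and 40.0% in cKO. Hoxd10 had 6 and 23 UMIs, 13.1 and 16.7 CPM. Hoxa10 had 1 and 5 UMIs, which was 0.0500 and 0.0420 times the fibroblast level. Hoxd11 was 0.0210 and 0.0512 times the fibroblast level, so both were far lower there than in the stroma. All 5 lymphatic markers were detected, but their summed level was 11072 CPM in control and 5542 CPM in cKO, while fibroblast markers stood at 174.6 and 570.0 CPM. The part of this in the Hoxd9 difference was not tested. Macrophage or monocyte-like cells, from the same libraries, had so little Hoxd9 that the lymphatic level was 97.8 times theirs in control (25.1 to 840.4) and 28.6 times in cKO (4.73 to 1169).

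Immune classes had few member UMIs, 80 in control and 17 in cKO macrophage or monocyte-like cells, and a member had a UMI in 8.67% and 4.31% of those cells. For some genes 1 cell held most of the UMIs. Of 31 Hoxd11 UMIs in 300 control macrophage or monocyte-like cells, 18 were in 1 cell and all were in 7 cells. The cKO cells had 3. In dendritic cell-like cells, 11 Hoxd10 UMIs of the control library lay in 3 cells, 8 of them in 1 cell, against 2 UMIs in cKO.

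**Figure D2:**
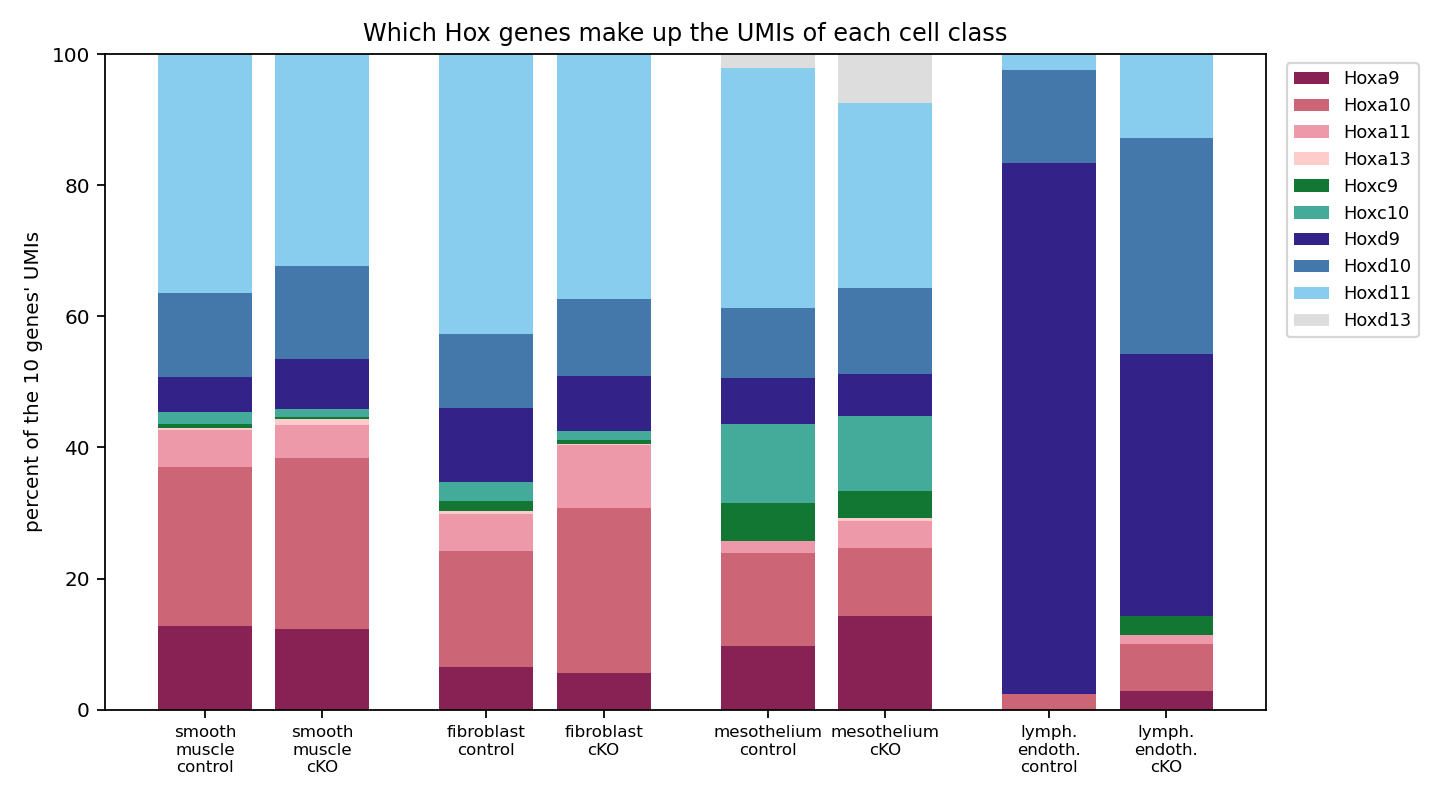
Share of the members' UMIs (percent) that each of the 10 genes makes up in each cell class and library. Hoxd11 leads in smooth muscle-like cells with 36.4% and 32.3%, HoxC members take their largest share in mesothelium-like cells, and Hoxd9 makes up 81.0% and 40.0% in lymphatic endothelium-like cells.

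The uterine epithelium lacked the abdominal members of HoxA, HoxC and HoxD but carried the HoxB complex, which has none of the 10 genes. This was seen after the values were known. All HoxB genes together had 164.6 CPM (3109 UMIs) in control and 172.2 CPM (232 UMIs) in cKO epithelium-like cells. In smooth muscle-like cells they had 39.4 and 68.7 CPM, and in fibroblast-like cells 23.9 and 18.5 CPM. In epithelium-like cells, Hoxb6, Hoxb7 and Hoxb8 led, Hoxb6 with 36.5 and 44.5 CPM, Hoxb7 with 26.7 and 33.4 CPM and Hoxb8 with 36.5 and 27.5 CPM. All HoxA genes together had 0.794 and 3.71 CPM, all HoxD genes 1.11 and 0.742 CPM, and all HoxC genes 0.476 CPM in control and no UMI in cKO. The mesenchyme was the reverse: HoxA summed to 203.6 and 268.7 CPM in muscle and 85.1 and 146.4 CPM in fibroblast-like cells, and HoxD to 217.5 and 299.2 CPM and to 188.8 and 241.1 CPM. HoxC summed to 153.7 and 150.0 CPM in mesothelium-like cells and to 34.1 and 40.1 CPM in muscle.

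**Figure D3:**
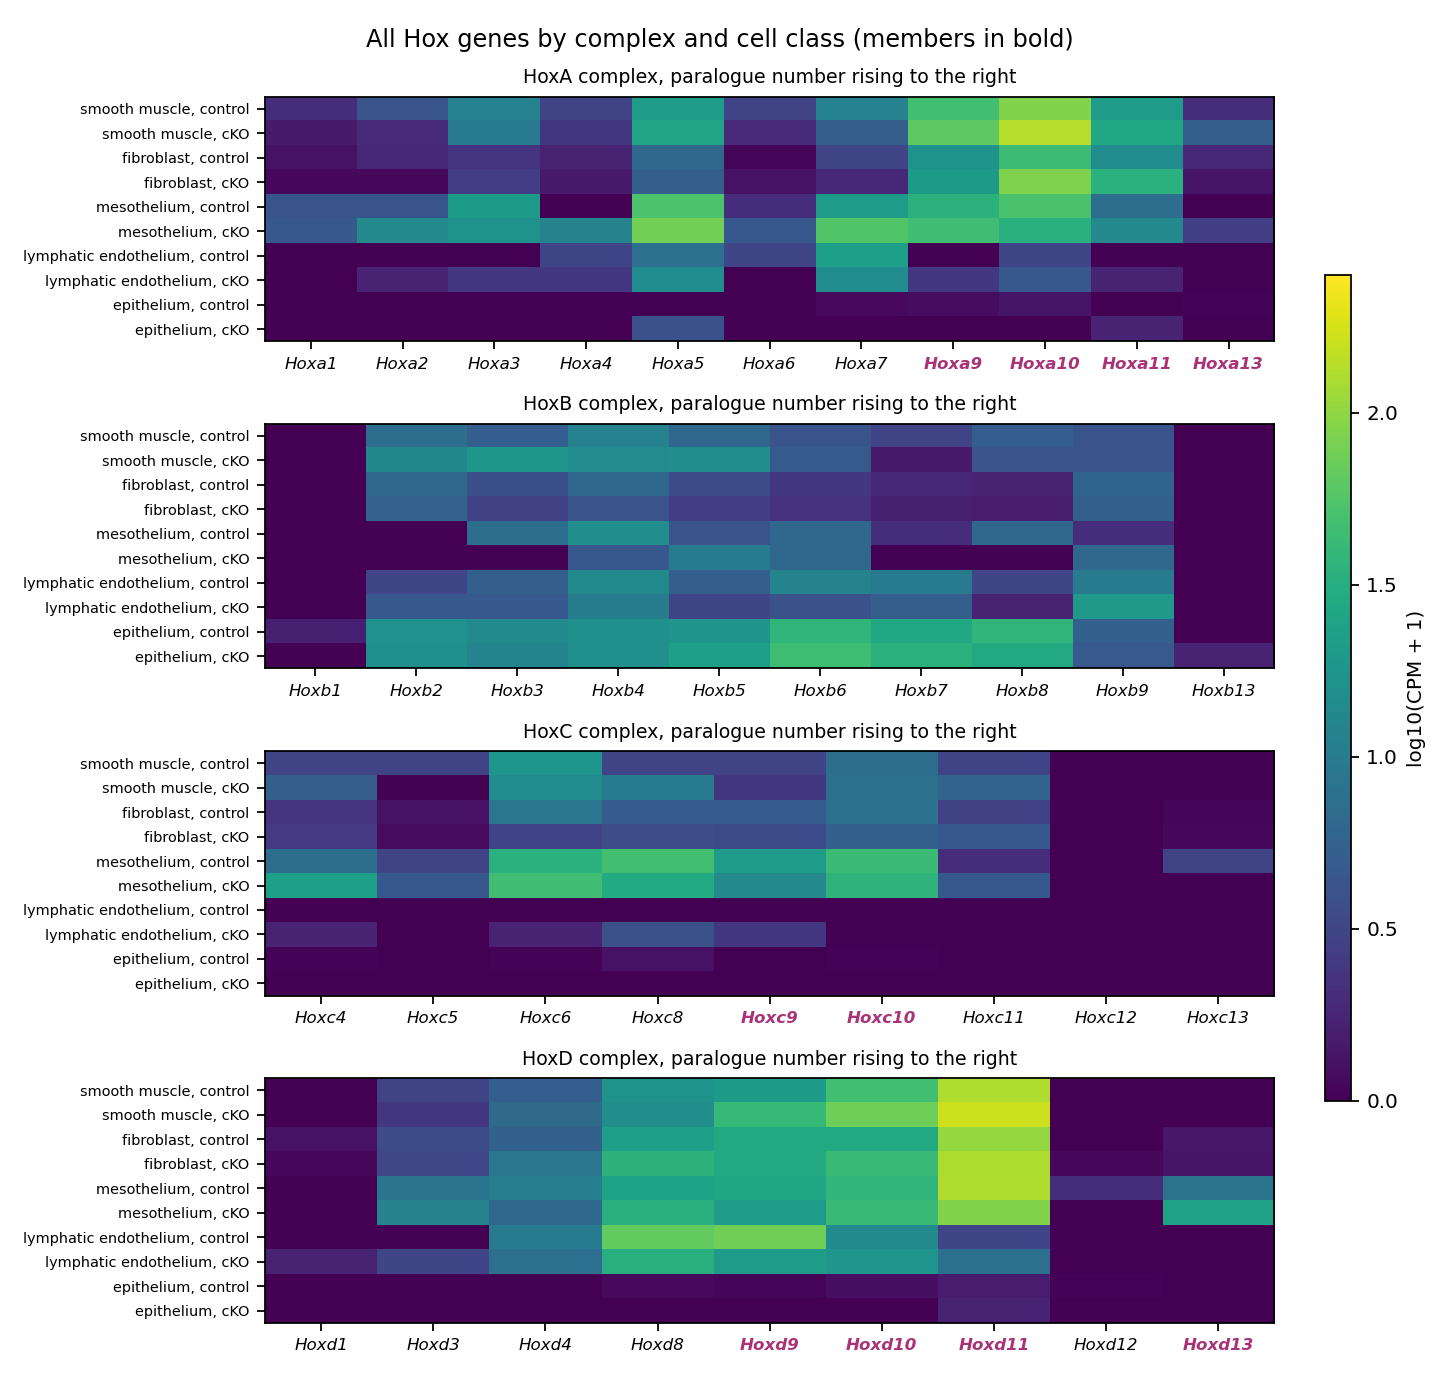
Level of every Hox gene (colour, log10 of CPM + 1) with 1 panel for each of the 4 complexes, genes in columns by rising number and cell class and library in rows. The epithelium-like rows are filled in HoxB (164.6 and 172.2 CPM over the complex) and near empty in HoxA and HoxD, and the mesothelium-like rows are the fullest in HoxC (153.7 and 150.0 CPM).

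The share of cells with a member UMI followed class and depth. At least 1 member had a UMI in 51.0% of control and 59.5% of cKO smooth muscle-like cells and in 63.7% and 69.1% of fibroblast-like cells. The share in epithelium-like cells, which can serve as the background for these libraries, was 1.37% and 1.83%. Median depths were 1892.5 and 2010 UMIs per cell in muscle, 9406.5 and 10074 in fibroblast-like cells and 4371 and 4075 in epithelium. With every cell thinned to 1000 UMIs, the shares were 26.8% and 37.0% in muscle, 21.4% and 26.2% in fibroblast-like cells and 0.153% and 0% in epithelium, so the order of muscle and fibroblast-like cells was reversed at equal depth. No cell had to be left out, as 1000 UMIs was the minimum for a cell. At least 3 members were seen in 6.45% and 10.7% of smooth muscle-like cells and in 22.5% and 28.4% of fibroblast-like cells and 31.7% and 45.2% of mesothelium-like cells, unthinned.

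In smooth muscle-like cells, the cell type of the myometrium named in the series title, the members as a whole were higher in the library labelled cKO. The summed level went from 357.1 to 513.4 CPM, a ratio of 1.44 (1.27 to 1.63). Hoxa10 was higher by a ratio of 1.55 (1.21 to 2.01), Hoxd9 by 2.04 (1.21 to 3.61), Hoxd10 by 1.59 (1.13 to 2.29) and Hoxd11 by 1.27 (1.03 to 1.58). The ratios of Hoxa9 (1.37, 0.967 to 1.99) and Hoxa11 (1.30, 0.757 to 2.31) had intervals that held 1. Hoxc10 had 6.397 and 6.68 CPM. These intervals left out 1 for 4 of the 6 members with at least 10 CPM in either library and were above it, beside 26.3% of all 8715 genes with such a level. None (0 of 6) lay below 1, beside 9.66% of all genes. No member (0 of 6) had a log2 ratio of at least 1 after 5 CPM were added to both levels, beside 3.73% of all genes higher in cKO and 1.97% lower. On that scale the median of the 6 members was 0.51 and that of all genes 0.21. Scaling by the median of ratios moved all log2 ratios of this class by -0.16, and left the members' sum at 0.36. Subtracting free RNA as 10% of the class total left it at 0.50. Smooth muscle and fibroblast markers of this class were both lower in cKO, and their part in the result was not tested.

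The muscle class was made of 3 clusters that differed in member pattern and in their share of each library. Cluster 9 (222 control and 351 cKO cells), with a median of 1406 UMIs, held 222 of 310 control cells, and clusters 22 (76 and 241 cells) and 24 (12 and 89 cells) made up more of the cKO class. In cluster 9, Hoxa10 was 103.9 CPM in control and 192.0 CPM in cKO, ratio 1.85 (1.29 to 2.68), the 1 of 8 members with an interval above 1 there, beside 13.8% of all genes. In cluster 22 it was 61.1 and 86.7 CPM, ratio 1.42 (0.908 to 2.30). Cluster 9 had more Hoxa10 than cluster 22 in both libraries, by 1.70 times (1.02 to 2.90) and 2.21 times (1.67 to 2.94), and more Hoxa11, by 5.04 times (1.44 to 27.0) and 3.46 times (1.84 to 6.71). Hoxd11 ran the other way, at 0.368 times (0.233 to 0.568) and 0.397 times (0.279 to 0.552) the level of cluster 22. The summed Hoxd11 level hardly differed between the libraries within either cluster, at 69.3 and 76.4 CPM in cluster 9 and 188.1 and 192.8 CPM in cluster 22. In control cluster 22, 1 cell held 14 of the 77 Hoxd11 UMIs. Without the cell with the most in each library, the levels of cluster 22 were 161.3 and 187.9 CPM. The means of the single cells' levels there were 161.9 and 230.8 CPM. Hoxd10 and Hoxd9 of cluster 22 were higher in cKO, with ratios of 1.63 (1.04 to 2.65) and 2.80 (1.10 to 9.09), 2 of 6 members beside 16.6% of all genes. All 9 Hoxa13 UMIs of cKO muscle lay in cluster 9. Without cluster 24, the sum had a ratio of 1.36 (1.19 to 1.56) and Hoxd11 one of 1.22 (0.967 to 1.54).

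In fibroblast-like cells the summed level was 244.6 CPM in control and 342.1 CPM in cKO, a ratio of 1.40 (1.33 to 1.47), and the members did not move alike. Hoxa11 had 132 and 528 UMIs, ratio 2.38 (1.96 to 2.90), and Hoxa10 had 418 and 1389 UMIs, ratio 1.98 (1.77 to 2.21). Hoxd10 had a ratio of 1.47 (1.27 to 1.71) and Hoxd11 of 1.22 (1.13 to 1.32). Hoxd9 stood at 1.03 (0.888 to 1.21) and Hoxa9 at 1.22 (0.998 to 1.49). Hoxc10 was lower, from 6.996 to 4.47 CPM, ratio 0.639 (0.451 to 0.904), and Hoxc9 had 3.97 and 2.48 CPM, ratio 0.625 (0.391 to 1.00). Intervals lay above 1 for 4 of the 6 members with at least 10 CPM, beside 40% of 8141 genes, so an interval above 1 was common in this class. Below 1 there were 0 of 6, beside 17.6%, as Hoxc10 is under 10 CPM. Hoxa11, 1 of 6, was higher by a log2 ratio of at least 1, beside 1.71% of all genes, and 0 of 6 were lower by as much, beside 0.848%. The median log2 ratio of the 6 members was 0.38 and that of all genes 0.10.

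These fibroblast differences followed 2 clusters, 14 and 21, which were set apart after their values were seen. Cluster 21, led by Aldh1a2, Dio2, Scube1, A2m and Foxl2, had 24 control and 269 cKO cells. Hoxa10, Hoxa11, Hoxd9, Hoxd10 and Hoxd11 were higher there than in the other fibroblast-like cells in both libraries. The share of all genes that were higher there was not counted. Hoxa10 was 2.52 times higher there in control (1.69 to 3.64) and 2.98 times in cKO (2.68 to 3.32), and Hoxa11 3.15 times (1.58 to 5.71) and 6.24 times (5.15 to 7.58). Hoxd9 was 2.31 and 2.35 times higher, Hoxd10 2.86 and 2.54 times, and Hoxd11 1.77 and 1.82 times. Hoxa9 did not share this, at 0.423 times (0.0507 to 1.55) and 0.970 times. Hoxc9 and Hoxc10 had no UMI in the control cells of the cluster and were lower in its cKO cells, at 0.353 times (0.108 to 0.906) and 0.309 times (0.128 to 0.647). Hoxa13 and Hoxd13 had at most 1 UMI there. Without cluster 21, the ratio of cKO to control over fibroblast-like cells was 1.32 (1.16 to 1.50) for Hoxa10, 1.011 (0.790 to 1.30) for Hoxa11 and 1.05 (0.990 to 1.11) for the sum. Hoxd9 was then lower in cKO, 0.776 (0.646 to 0.931). Within cluster 21, Hoxa10 was 105.2 CPM (31 UMIs) in control and 163.6 CPM (759 UMIs) in cKO, ratio 1.56 (1.09 to 2.31), and Hoxa11 40.7 and 81.5 CPM, ratio 2.00 (1.13 to 3.91). Those were 2 of 6 members beside 12.4% of all genes. Hoxd11 was 179.9 and 187.1 CPM. One cell with 220080 UMIs held 4.96% of the cluster's member UMIs in cKO.

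Cluster 14 had similar numbers of cells from both libraries, 109 and 140, and the widest difference in Hoxa10. Hsd11b2, which inactivates glucocorticoids, and the heat shock genes Hspa1a and Hspa1b led it. Hoxa10 had 41 UMIs in 32 control cells, 52.0 CPM, and 218 UMIs in 68 cKO cells, 265.9 CPM, a ratio of 5.11 (3.65 to 7.32). Hoxa9 had a ratio of 2.30 (1.54 to 3.49), Hoxa11 of 2.03 (1.13 to 3.78), Hoxd11 of 1.84 (1.43 to 2.37) and Hoxd10 of 1.71, while that of Hoxd9 was 1.46 (0.860 to 2.53). Hoxc9 was 16.5 CPM in control and 6.099 CPM in cKO. Intervals lay above 1 for 5 of the 8 members with at least 10 CPM, beside 13.6% of all genes, and 2 of 8, Hoxa10 and Hoxa9, were higher by a log2 ratio of at least 1, beside 5.79%. None (0 of 8) was lower by either rule, beside 12.2% of all genes by interval and 6.47% by log2 ratio. The sum was 359.0 and 794.1 CPM. When the cells were split more finely, the Hoxa10 difference was found in the piece with 98 control and 77 cKO cells (52.9 and 277.2 CPM). It was also found in a piece with 3 and 43 cells (80.5 and 310.1 CPM), which held 137 of the 218 cKO UMIs. The remaining piece, with 8 and 20 cells, had only 1 and 2 UMIs, too few to show a difference or its absence. In the piece with 98 control cells, ratio intervals of Hoxa9 (1.12 to 3.25), Hoxa11 (1.12 to 5.565) and Hoxd11 (1.06 to 2.22) lay above 1. That of Hoxd10 (0.754 to 2.685) held 1. In the piece with 3 control cells, that of Hoxa9 (1.04 to 33.3) lay above 1. Those of Hoxa11 (0.276 to 3.215), Hoxd10 (0.549 to 8.79) and Hoxd11 (0.840 to 3.43) held 1. Other genes of cluster 14 as a whole, chosen after their values were seen, differed as well. Hand2, a progesterone-induced stromal factor, was 6.34 and 101.2 CPM, Wnt5a 57.1 and 289.1 CPM, Foxl2 16.5 and 102.5 CPM and Hspa1a 1649 and 3851 CPM. The immediate early gene Egr1 was alike at 5286 and 5151 CPM. The part of the heat shock genes in the Hox difference was not tested.

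Without clusters 14 and 21, none of the 6 members with at least 10 CPM had an interval above 1 over the fibroblast-like class, beside 35.4% of 7850 genes, and 1 of 6, Hoxd9, had one below 1, beside 18% of genes. Hoxa10 was 40.7 CPM in control and 38.7 CPM in cKO, ratio 0.949 (0.821 to 1.10), Hoxa11 had a ratio of 0.875 (0.663 to 1.16) and Hoxd11 of 0.937 (0.854 to 1.03). Hoxd9 was lower, from 26.0 to 18.6 CPM, ratio 0.714 (0.586 to 0.869), as was the sum, 226.3 and 206.6 CPM. The other clusters held different levels. Cluster 4, led by Thbs2, Nog and Frzb, had sums of 317.3 and 303.5 CPM, with Hoxa10 at a ratio of 1.38 (1.14 to 1.67) and Hoxd11 at 0.848 (0.747 to 0.961), 1 of 6 members in each direction beside 26.1% of all genes higher and 12.6% lower. Cluster 8, led by Igfbp3 and C1qtnf3, was the poorest in members, with 124.4 and 146.0 CPM, or 0.392 (0.346 to 0.443) and 0.481 (0.433 to 0.534) times the level of cluster 4. Cluster 23, led by Cxcl5, Il6 and Ptx3, had 181.7 and 155.8 CPM, and its Hoxa10 was 34.8 and 16.9 CPM, ratio 0.485 (0.329 to 0.714), 1 of 5 members beside 12.8% of all genes lower. Cluster 11, with a median of 1697 UMIs, had 70.0 and 75.1 CPM of Hoxa10.

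**Figure D4:**
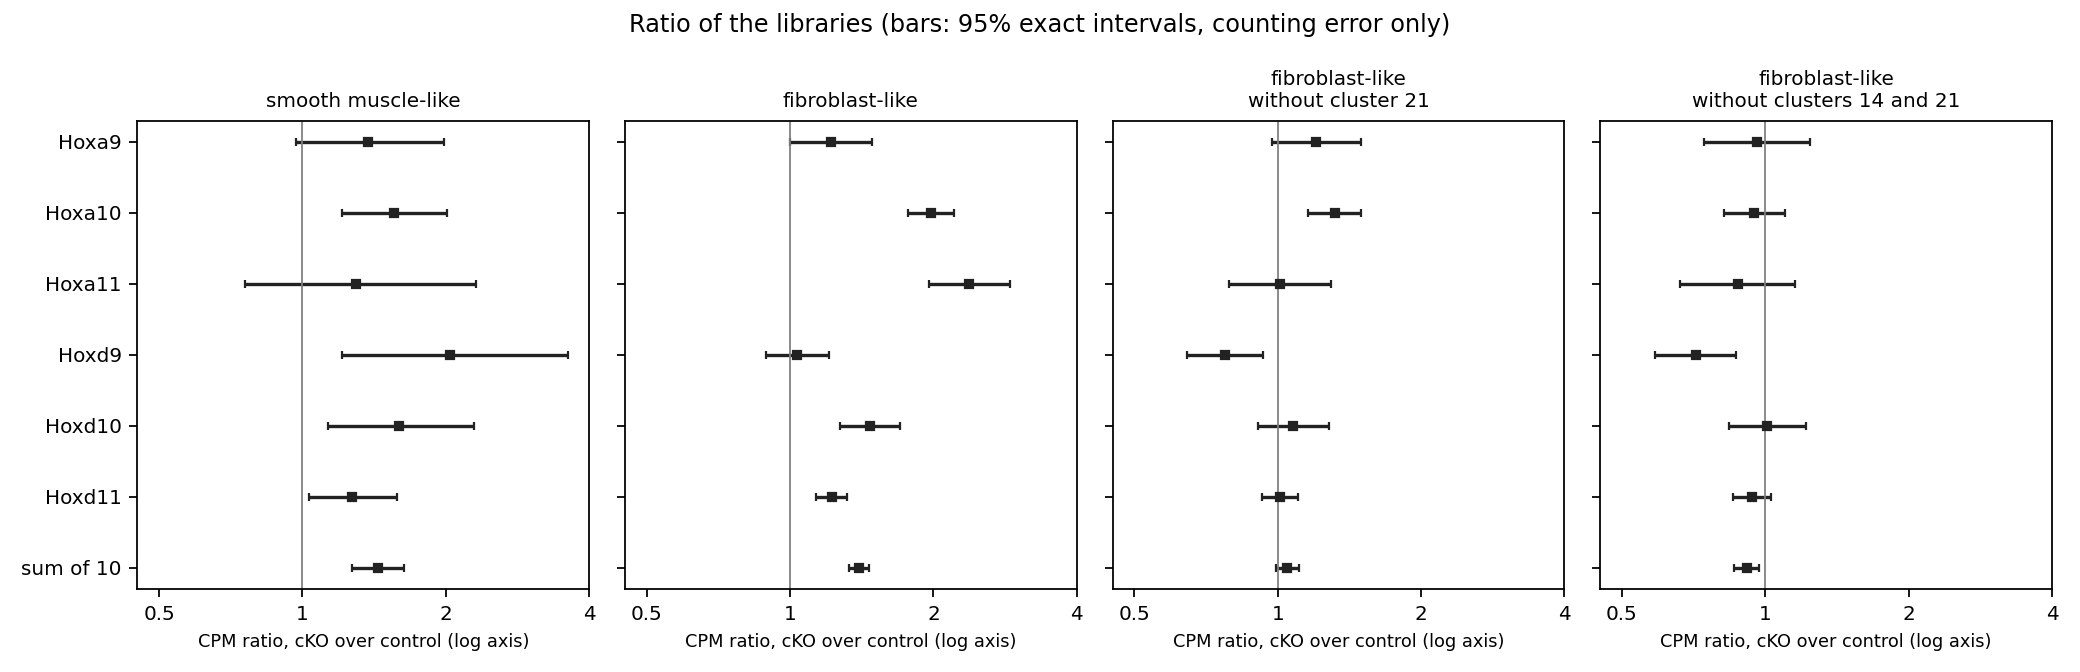
Ratio of the level in the library labelled cKO to that in the library labelled control (log axis) for 6 members and the sum of all 10, with exact 95% intervals as bars, in smooth muscle-like cells and in fibroblast-like cells with and without clusters 21 and 14. Over all fibroblast-like cells Hoxa11 stands at 2.38 and Hoxa10 at 1.98, and without both clusters they stand at 0.875 and 0.949.

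**Figure D5:**
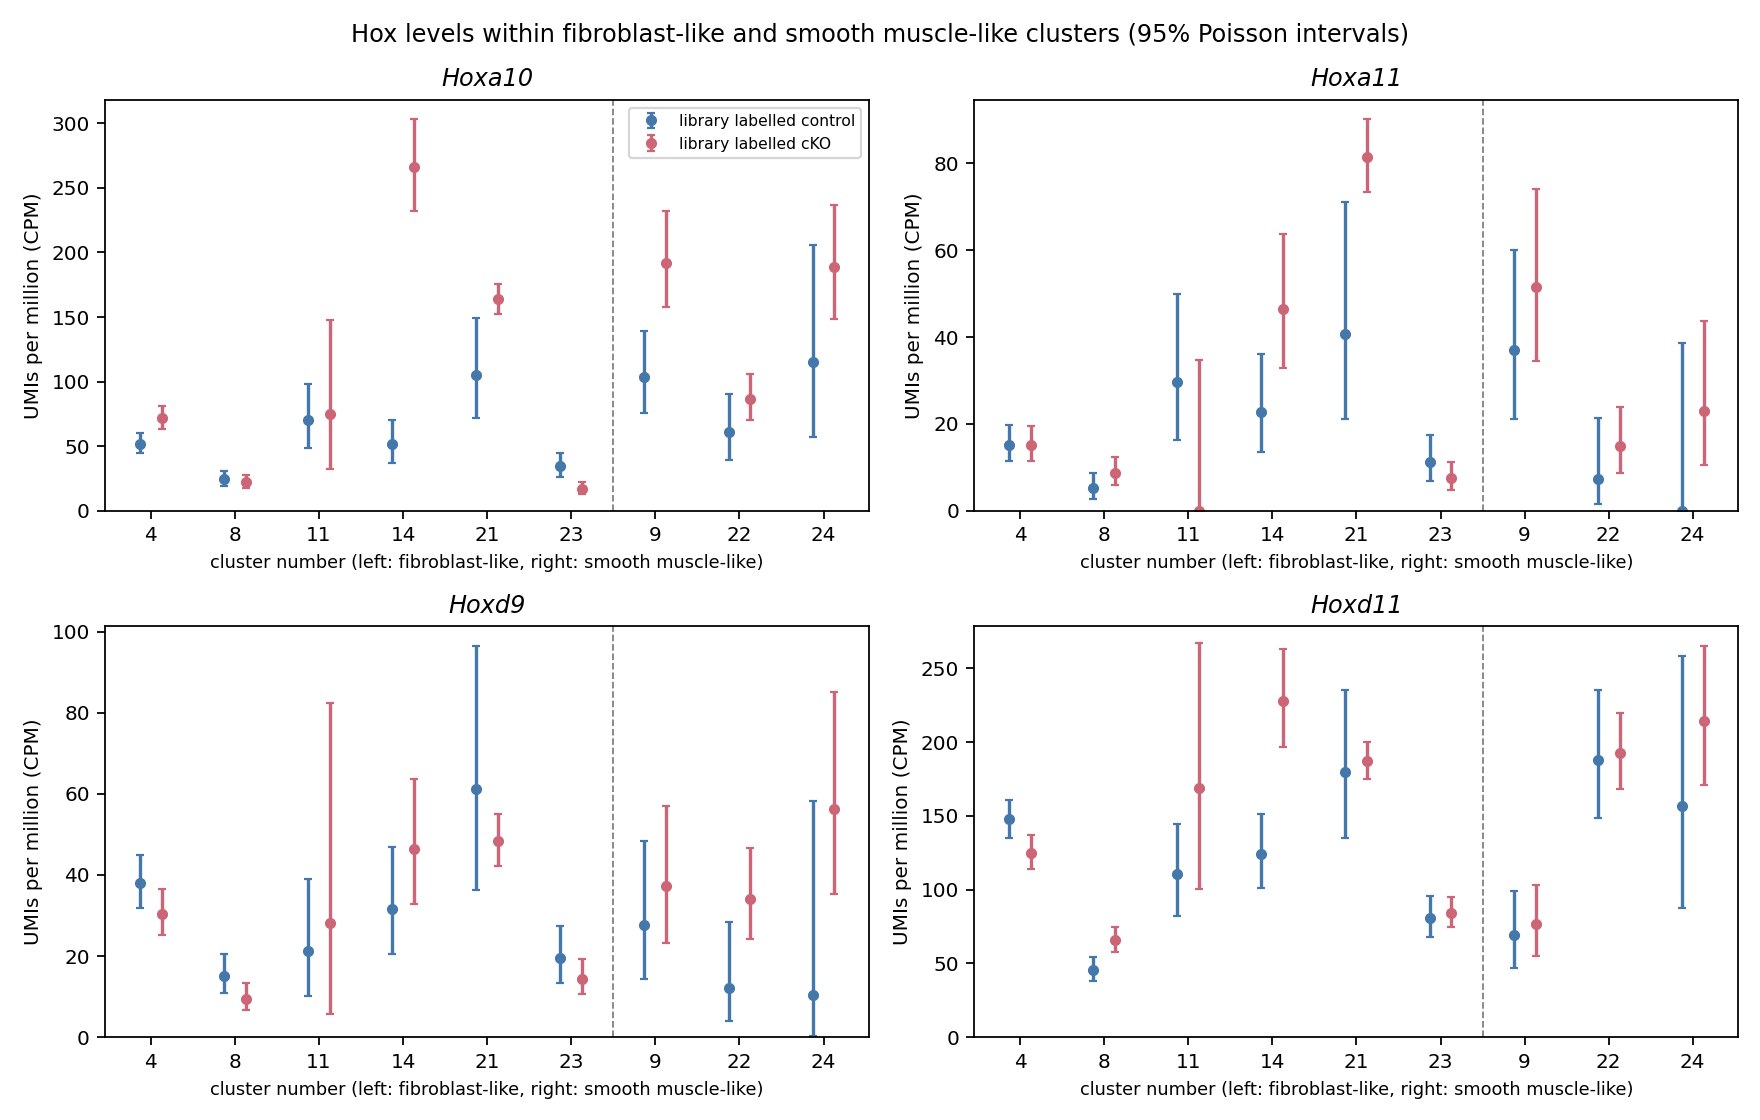
Levels of Hoxa10, Hoxa11, Hoxd9 and Hoxd11 (CPM) in each smooth muscle-like and fibroblast-like cluster for the library labelled control and the library labelled cKO, with exact 95% Poisson intervals. In cluster 14 Hoxa10 stands at 52.0 and 265.9 CPM, while in cluster 4 it stands at 52.1 and 71.8 CPM.

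The partners and neighbours of the members were read from lists, as log2 ratios of cKO to control with 5 CPM added. Of 9 Pbx, Meis and Pknox cofactor genes, 8 reached 10 CPM in muscle, with a median of 0.36. Of these, 0 passed a log2 ratio of 1, beside 3.73% of all genes higher in cKO and 1.97% lower. Pbx3 (0.65) and Meis1 (0.64) were at the high end. Meis3 (-0.79), Pbx2 (-0.16) and Pknox2 (-0.02) were at the low end. In fibroblast-like cells, 0 of 8 passed, beside 1.71% of all genes higher in cKO and 0.848% lower. The median was 0.34, from Pknox2 (0.86), Pknox1 (0.71) and Pbx2 (0.66) to Meis2 (-0.35), Meis1 (-0.02) and Meis3 (0.10). Of 29 other Hox genes, 9 reached 10 CPM in muscle, with a median of 0.22. Hoxb3 (1.29, 4 and 37 UMIs), 1 of 9, passed, beside 3.73% of all genes higher in cKO. It was followed by Hoxb5 (0.94, 5 and 31 UMIs) and Hoxb2 (0.57, 6 and 25 UMIs), and the ratio interval of Hoxb2 held 1. Hoxa7 (-0.75), Hoxc6 (-0.23) and Hoxa3 (-0.20) were lowest. In fibroblast-like cells, only Hoxd8 reached that level, at 21.6 and 34.3 CPM. The antisense RNA Hoxa11os was 14.9 and 11.9 CPM in muscle and 8.14 and 11.9 CPM in fibroblast-like cells. It was the only 1 of 10 Hox cluster long non-coding RNAs to reach 10 CPM in either class.

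Of 20 genes of Müllerian patterning and uterine function, including targets reported for HOXA10, 15 reached 10 CPM in muscle and 3 passed a log2 ratio of 1, all higher in cKO, beside 3.73% of all genes. They were the prostaglandin receptor Ptger4 (1.44), the progesterone receptor Pgr (736.7 and 1775 CPM, 1.26) and Osr1 (1.22). Lif (-0.91), Ptger3 (0.08) and Bmp2 (0.09) were lowest, and the list's median was 0.53. In fibroblast-like cells, 13 reached 10 CPM and 3 passed, Wnt5a (2.09), Hand2 (2.08) and the integrin Itgb3 (1.49), beside 1.71% of all genes. Cluster 21, with 24 control and 269 cKO cells, held 1761 of the 2072 Wnt5a UMIs and 403 of the 502 Hand2 UMIs in cKO. Within it, Wnt5a was 339.4 and 379.6 CPM and Hand2 61.1 and 86.9 CPM. In cluster 14, Wnt5a was 57.1 and 289.1 CPM and Hand2 6.34 and 101.2 CPM. Bmp4 (-0.29), Emx2 (-0.13) and Ptger4 (0.19) were lowest. Of 10 chromatin regulators of Hox genes, of the Polycomb and trithorax groups, 9 reached the level in muscle and 8 in fibroblast-like cells, and 0 passed in either. Among all genes, 3.73% in muscle and 1.71% in fibroblast-like cells were higher by as much, and 1.97% and 0.848% lower. The range in muscle was from Kmt2a (0.08), Ezh2 (0.09) and Suz12 (0.16) to Kmt2d (0.44), Eed (0.46) and Men1 (0.64), with a median of 0.22. In fibroblast-like cells it was from Kmt2a (0.04), Ezh2 (0.09) and Men1 (0.13) to Kmt2d (0.21), Suz12 (0.25) and Kdm6a (0.26), with a median of 0.18. None of 8 genes of squamous vaginal epithelium reached 10 CPM in either class. Neither class is epithelial, so this does not show whether the libraries held squamous cells. Krt6a, 1 of the 8, was among the leading genes of the epithelium-like cluster 6, with 154 control and 20 cKO cells.

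Genes with the most similar distribution were ranked by Spearman correlation over 35 pools of at least 50 cells, each a cluster in 1 library, so pools share libraries and depth. Hoxa10 was most like Twist1 (0.92), Des (0.91), Igf1 (0.90), Tnfaip8l3 (0.90) and Zcchc24 (0.89). Hoxa9 was most like Bnc2 (0.93), Galnt15 (0.92), Wt1 (0.92), Fads2 (0.90) and Pi15 (0.89). Hoxd11 was most like Wt1 (0.93), Cacna2d1, Tbx3, Igf1 (0.89) and Hspb8 (0.88). Hoxa11 was most like Mxra7 (0.87), Irak1bp1 (0.85), Ndrg4 (0.85), Tmem47 (0.85) and Ift74 (0.84). Hoxd9 was nearest to Tbx3 (0.89), Tmem47, Fam189a2, Lix1l and Pgm5, and Hoxd10 to Tcaf1 (0.90), Igf1, Fads2, Sobp and Npr2. Des is one of the smooth muscle markers and Wt1 one of the mesothelium markers that named the classes. Between members, correlations ran from 0.74 for Hoxa11 with Hoxd11 to 0.93 for Hoxa9 with Hoxd10. With both libraries summed into 25 pools, between 0 and 3 of each gene's 5 names came out again, so single names are weakly fixed.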

How the data were processed

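Single-cell RNA was measured with 10x 3' v3 libraries from uteri dissociated for 5 hours. The authors deposited raw UMI counts per gene and barcode. The file headers name Cell Ranger 4, and the submitters' processing notes give Cell Ranger 6.1.1 and mm10. Genes were matched by symbol and identifier to GENCODE vM21. Cells with at least 1000 UMIs, 500 genes and at most 20% mitochondrial UMIs were normalised to 10000, clustered on 2000 variable genes without Hox genes, Hox RNAs and Prickle1 (30 components, 15 neighbours, Leiden resolution 1.0, scanpy 1.11.5, Python 3.11.15), and clusters named from at least 3 detected markers; a deep cluster with markers of 2 classes stayed unnamed. Scrublet marked 4 of 7076 cells, so it did not work here, and no doublet was removed.

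Raw counts were summed per class and library and scaled to CPM. With 1 library per group there is no test and no p-value. Genes with at least 10 CPM in either library were compared by log2 ratio with 5 CPM added and by exact intervals (95%, scipy 1.17.1). The ratio script was tested on simulated data. Each printed interval covers counting error only. The members and lists were chosen with earlier results of these data known, and so were the class rules. Named genes are the members, Prickle1, the 5 genes most alike each member with at least 500 UMIs, and the 3 highest and 3 lowest of each list. Others are said to be chosen after their values were seen. One gene of the lists is not reported here. Alternatives covered scaling, added CPM, cell filters, resolution, thinning, free RNA, doublets and clusters.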

Additional observations from a re-analysis of the deposited data

Results flagged for a closer look

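Several members had intervals on opposite sides of 1 in different classes or clusters. Values are log2 ratios of cKO to control with 5 CPM added, and the difference between cells was not tested, with 1 library per group. Hoxd9 was higher in cKO smooth muscle-like cells (0.87) and lower in cKO lymphatic endothelium-like cells (-1.65). Hoxd10 was higher in fibroblast-like (0.48) and smooth muscle-like cells (0.62) and lower in dendritic cell-like cells (-0.91), where it rests on 3 control cells. Hoxd11 was higher in fibroblast-like (0.28) and smooth muscle-like cells (0.34) and lower in macrophage or monocyte-like cells (-1.23), where 1 control cell held 18 of 31 UMIs, and in mesothelium-like cells (-0.54). Among fibroblast-like clusters, Hoxa10 was higher in clusters 4 (0.43), 14 (2.25) and 21 (0.61) and lower in cluster 23 (-0.86). Hoxd11 was higher in clusters 8 (0.48) and 14 (0.85) and lower in cluster 4 (-0.23).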

How the results depend on the processing

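All values here are log2 ratios of cKO to control with 5 CPM added unless the setting changes it. The members' sum in smooth muscle-like cells (0.52) kept its direction in 14 of 14 alternatives, from 0.36 to 0.73, the last with cells thinned to 1000 UMIs (0.73). In fibroblast-like cells (0.48) it kept it in 13 of 14: it was 0.56 thinned, 0.28 as a mean of within-cluster ratios, 0.064 without clusters drawn over 90% from 1 library (cluster 21) and -0.13 without clusters 14 and 21. In epithelium-like cells (-0.02) it was -0.38 thinned, on very few UMIs. Without clusters 14 and 21, Hoxa9 (-0.043), Hoxa10 (-0.067), Hoxa11 (-0.13) and Hoxd11 (-0.089) of fibroblast-like cells changed sign, as did Hoxc10 when thinned (0.36). Hoxd9 of these cells (0.043), whose interval held 1, kept its sign in only 9 of 14 alternatives, from -0.396 to 0.074. Hoxa13 and Hoxd13, with at most 8 UMIs in a library, kept theirs in 13 and 10 of 14. Hoxa11 also changed sign in the mean of within-cluster ratios (-0.16). That mean includes cluster 11 (-2.80), where Hoxa11 had 14 control and 0 cKO UMIs and a ratio interval of 0 to 1.33. Its other values were 0.92 in cluster 21, 0.88 in cluster 14, 0.43 in cluster 8, -0.009 in cluster 4 and -0.37 in cluster 23. The removal of clusters 14 and 21 or 24 and the split of cluster 14 were chosen after seeing the data. Elsewhere the cause was not tested. Hoxa11 in smooth muscle-like cells ranged from -0.02 to 0.56, so its direction is not fixed, whereas Hoxa10 (0.45 to 0.74) and Hoxd9 (0.59 to 1.31) were higher in cKO in all 14. No paired analysis was possible because each group is 1 pooled library. In muscle, Hoxa13, Hoxc9 and Hoxd13 had too few UMIs (0 to 9) for a ratio to be read.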
